A study of Rattus norvegicus with 24 samples.

Results

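The miRs described are miR-21 and the miR-34 family, taken by name as both arms of the hairpins of miR-21, miR-34a, miR-34b and miR-34c. Of the 758 rat miRs on the array, 8 carry such a name: rno-miR-21-5p, rno-miR-21-3p and the 5p and 3p arms of miR-34a, miR-34b and miR-34c. INS1 cells, a rat insulinoma line that stands in for the insulin-producing β-cell, were profiled on 24 single-colour arrays, 3 for each of 8 groups. The question was which miRs respond to proinflammatory cytokines and whether Givinostat, a broad inhibitor of lysine deacetylases (KDACi), alters that response. All cells were first cultured for 48 h. Ctrl cells then received neither agent, Cyt cells received 150 pg/ml IL-1β with 0.1 ng/ml IFN-γ, Giv_Ctrl cells received 125 nM Givinostat alone, and Giv_Cyt cells received 125 nM Givinostat 1 h ahead of the same cytokines. Each treatment was stopped at 6 h or 24 h. The series' design text calls the 3 arrays of a group technical replicates, while the study's own text speaks of replicates without saying of what kind, so whether they are separate cultures is not settled. The p-values below measure only the spread between these arrays, which may be technical. INS1 is a single cell line, and the values are bulk levels in which fewer cells with a miR and less of it per cell cannot be told apart.

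The β-cell label was checked against marker miRs. miR-375-3p and miR-7a-5p, both abundant in β-cells, were well above background on all 24 arrays, while miR-184 was so on 0. The liver marker miR-122-5p and the 6 blood cell markers were well above background on 0 arrays. Of the other markers, muscle miR-206-3p was on 24 arrays, miR-1-3p on 3 and miR-133a-3p on 0, neuronal miR-124-3p on 21 and miR-9a-5p on 1, endothelial miR-126a-3p on 2, and fibroblast miR-214-3p on 13 with the remaining fibroblast markers on 0. To count as well above background on an array, a miR needed the scanner's mark for this on 8 or more of its 16 spots.

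miR-21 is known as a miR of inflammation, stress and tumour growth, and it is abundant in many cell types. The miR-34 genes are transcriptional targets of p53, and their 5p arms slow the cell cycle and favour apoptosis. In β-cells, miR-21 and miR-34a are known from earlier work as cytokine-induced miRs. A mature miR finds its targets mainly through its seed, and a hairpin can release a miR from either arm.

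The mature sequences below, from RefSeq with build GRCr8, are shown because the family splits by seed and because the only members with a strong signal are miR-21-5p and miR-34b-3p. Capitals mark the seed, bases 2 to 8 from the 5′ end.
rno-miR-21-5p: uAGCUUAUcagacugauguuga
rno-miR-34b-3p: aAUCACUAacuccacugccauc
rno-miR-34c-3p: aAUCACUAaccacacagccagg
rno-miR-34a-5p: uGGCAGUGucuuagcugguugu
rno-miR-34b-5p: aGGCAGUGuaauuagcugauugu
rno-miR-34c-5p: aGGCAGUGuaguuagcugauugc
All 8 members had a mature sequence, as did 685 of the 758 miRs. The 5p arms of miR-34a, miR-34b and miR-34c share a seed with each other and with miR-449a-5p and miR-449c-5p. miR-34b-3p and miR-34c-3p share another, and no other matched miR had the seed of miR-21-5p, miR-21-3p or miR-34a-3p. Counted from the 5′ end, miR-34b-5p and miR-34c-5p differ by A11G and U23C, while miR-34b-3p and miR-34c-3p differ by U11C, C12A, U16A, U21G and C22G. The probes of the 2 bright members differ in how much of the seed they cover. Those of miR-21-5p have 19 and 20 bases and pair with its bases 4 to 22 and 3 to 22, and those of miR-34b-3p have 15 and 16 bases and pair with its bases 8 to 22 and 7 to 22.

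The array's own annotation places the hairpin of miR-21 at chr10:74864520-74864576 on the minus strand of rn4, that of miR-34a at chr5:167187919-167187981 on the plus strand, and those of miR-34b and miR-34c close together at chr8:54422585-54422641 and chr8:54422068-54422118 on the minus strand. For the 3 hairpins on the minus strand the order of the arms in that annotation runs against the strand, so these positions place the hairpin and not a base. In the gene table of GRCr8, Mir21 lies between Tubd1 and Vmp1 and overlaps no other gene, Mir34a lies in LOC103692514, and Mir34b and Mir34c are neighbours within Hoatz.

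miR-21-5p and miR-34b-3p were well above background on all 24 arrays, which 117 of the 758 miRs were. miR-34c-5p was so on 1 array, 24h_Cyt replicate 1, with 8 of 16 spots. By this rule the remaining 5 members were so on no array, as were 534 of the 758 miRs. The 3p arm of miR-34b was thus measurable, while its 5p arm, which carries the seed shared by the family, was not. Over all 24 arrays, the number of spots well above background was 0 for miR-21-3p, 0 for miR-34a-3p, 5 for miR-34a-5p, 9 for miR-34b-5p, 11 for miR-34c-5p and 22 for miR-34c-3p, of 384 spots each. Of the few marked spots of miR-34b-5p and miR-34c-5p, 7 and 8 came from 24h_Cyt replicate 1. Those of miR-34c-3p were spread wider, with 5, 3 and 2 on the 24h_Cyt arrays and 6 on 24h_Giv_Cyt replicate 1, and 19 of the 22 were on its 12-base probe. That probe was marked on 9 of 12 spots in 24h_Cyt, 4 of 12 in 24h_Giv_Cyt and 1 of 12 in 24h_Ctrl, while the 10-base and 11-base probes were marked on 0, so single probes of this miR can pass where the miR as a whole does not. The scanner's separate detection call was positive for miR-34c-3p on 9 arrays, for miR-34b-5p on 4, for miR-34a-5p on 3 and for miR-34c-5p on 3, with all 3 of 24h_Cyt among those of miR-34c-3p and miR-34b-5p. 24h_Cyt replicate 1 was also the brightest of the 24 and had the most miRs well above background, 211. The probes of miR-34b-5p and miR-34c-5p share an 11-base run of pairing with the other miR and with miR-27b-5p, from outside the family. miR-34b-5p and miR-34c-5p are identical at 21 of 23 bases, so each probe also pairs with the other miR beyond that run. The cross-hybridisation of these probes was not tested.

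**Figure D1:**
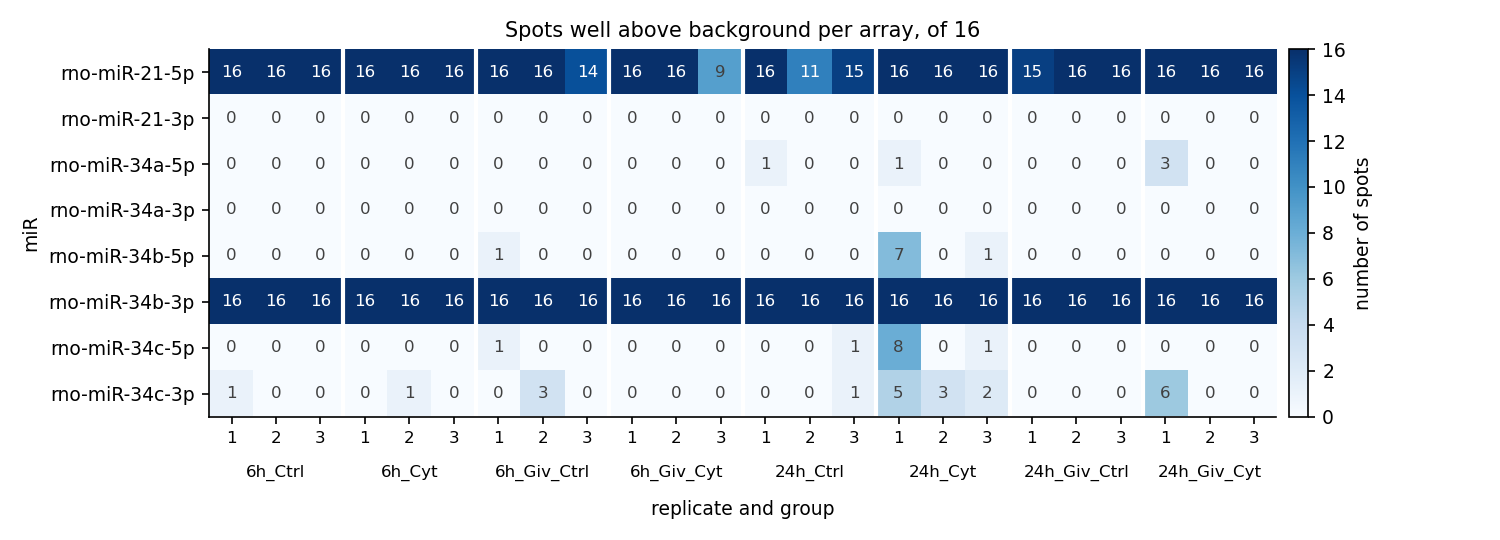
Number of the 16 spots of each miR that were well above background (colour and number) on each of the 24 arrays, by group and replicate. miR-21-5p and miR-34b-3p are marked on all arrays, and the other members reach at most 8 spots, on 24h_Cyt replicate 1.

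The dim members stayed within narrow ranges of log2 signal over the 24 arrays: 5.40 to 5.54 for miR-21-3p, 5.39 to 5.48 for miR-34a-3p, 5.64 to 5.90 for miR-34a-5p, 5.61 to 5.84 for miR-34b-5p, 5.45 to 5.65 for miR-34c-3p and 5.56 to 5.76 for miR-34c-5p. No fold is read from these members, since both groups of nearly every comparison lie below background. miR-34a-5p, the arm best known as the p53-induced tumour suppressor, gives here only the statement that it was not well above background in any group.

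For miR-21-5p, the log2 signal of replicates 1, 2 and 3 was 7.03, 6.84 and 7.02 in 24h_Ctrl. In 24h_Cyt it was 7.64, 7.50 and 7.41. In 24h_Giv_Ctrl it was 6.98, 7.24 and 7.38, and in 24h_Giv_Cyt 7.18, 7.36 and 7.29. At 24 h, all arrays with cytokines alone were thus above all arrays of the other treatments, and 24h_Giv_Ctrl spanned the gap between 24h_Ctrl and 24h_Giv_Cyt. The shares of all miRs without overlap stand beside the comparisons below. At 6 h the values were 7.06, 7.23 and 7.13 in 6h_Ctrl and 7.26, 7.12 and 7.29 in 6h_Cyt. With Givinostat they were 7.67, 7.07 and 6.98 in 6h_Giv_Ctrl and 7.29, 7.16 and 6.80 in 6h_Giv_Cyt. The 4 groups at 6 h overlapped, and the highest array of all 24 was 6h_Giv_Ctrl replicate 1, which received no cytokines.

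The group means of miR-21-5p (± SD, n = 3) fell in the order 24h_Cyt 7.52 ± 0.12, 24h_Giv_Cyt 7.28 ± 0.091, 6h_Giv_Ctrl 7.24 ± 0.38, 6h_Cyt 7.22 ± 0.093, 24h_Giv_Ctrl 7.20 ± 0.20, 6h_Ctrl 7.14 ± 0.088, 6h_Giv_Cyt 7.08 ± 0.25 and 24h_Ctrl 6.96 ± 0.11. The ranges of 24h_Cyt and 24h_Giv_Cyt did not overlap, and every other pair of neighbours in this order did.

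For miR-34b-3p, the log2 signal of replicates 1, 2 and 3 was 6.70, 6.91 and 6.77 in 24h_Ctrl and 6.66, 6.79 and 6.79 in 24h_Cyt. With Givinostat it was 6.81, 6.76 and 6.57 in 24h_Giv_Ctrl and 7.26, 6.81 and 6.91 in 24h_Giv_Cyt. The ranges of 24h_Ctrl and 24h_Cyt overlapped, and those of 24h_Giv_Cyt lay above those of 24h_Cyt. At 6 h the values were 7.00, 6.56 and 6.51 in 6h_Ctrl and 6.65, 6.95 and 6.67 in 6h_Cyt. They were 6.32, 7.22 and 6.98 in 6h_Giv_Ctrl and 6.64, 6.85 and 7.35 in 6h_Giv_Cyt. The widest spread lay within the Givinostat groups at 6 h, whose arrays include both the lowest and the highest of the 24.

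The group means of miR-34b-3p (± SD, n = 3) fell in the order 24h_Giv_Cyt 6.99 ± 0.24, 6h_Giv_Cyt 6.95 ± 0.37, 6h_Giv_Ctrl 6.84 ± 0.46, 24h_Ctrl 6.79 ± 0.10, 6h_Cyt 6.75 ± 0.17, 24h_Cyt 6.75 ± 0.076, 24h_Giv_Ctrl 6.71 ± 0.13 and 6h_Ctrl 6.69 ± 0.27. All neighbours in this order overlapped.

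**Figure D2:**
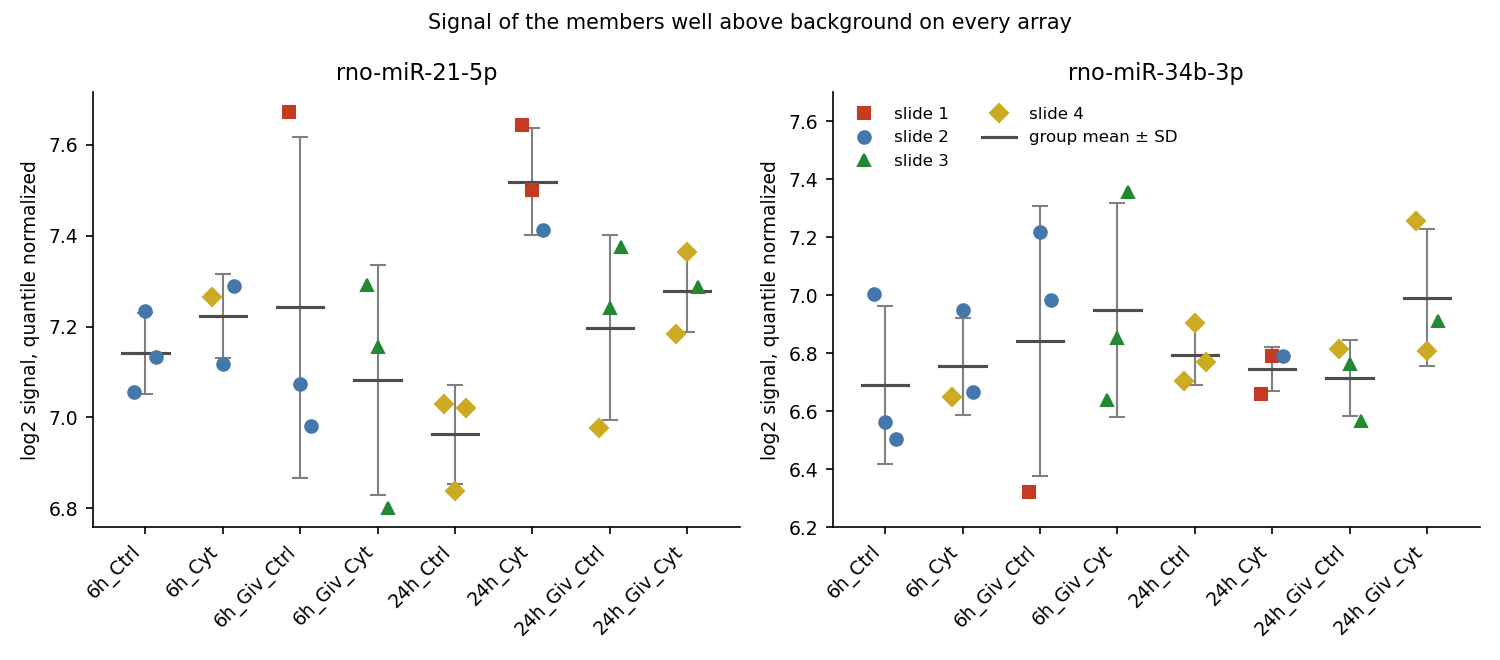
Quantile-normalized log2 signal of miR-21-5p (left) and miR-34b-3p (right) on each array by group, with symbols by slide, and group means (bars) ± SD (n = 3). For miR-21-5p the 24h_Cyt arrays lie between 7.41 and 7.64 and the 24h_Ctrl arrays between 6.84 and 7.03.

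miR-21-5p was higher in cells exposed to cytokines for 24 h than in untreated cells. In 24h_Cyt vs 24h_Ctrl its log2FC was 0.56 (SE 0.15, 95% confidence interval 0.24 to 0.87), a fold change of 1.47, with all 3 arrays of 24h_Cyt above all 3 of 24h_Ctrl (limma, Benjamini-Hochberg adjusted p = 0.0357). Such a lack of overlap was common here, with 3 members and 279 of all 758 miRs, 36.8%. A miR was called at an adjusted p below 0.05 and an absolute log2FC above 0.1375. The adjusted p of miR-21-5p lay close to that threshold. By p it stood at place 36 of 758, an order that also counts miRs not past the log2FC threshold. It was the single member called of 8, where 30 of all 758 miRs were called, 3.96%, 20 of them higher and 10 lower. At an unadjusted p below 0.05 there were 2 members and 180 miRs, 23.7% of all. The median log2FC was 0.027 over the 8 members and -0.011 over all miRs. miR-34b-3p had a log2FC of -0.047 (95% confidence interval -0.47 to 0.38). The same arrays thus bound a cytokine effect on miR-34b-3p only loosely, and the interval takes in a change of either sign. Among the dim members, miR-34a-3p gave a measured difference of -0.051 (limma adjusted p = 0.0911), smaller than the log2FC threshold. The split of all calls into 20 higher and 10 lower depended on the scaling. Without normalization all 173 calls were higher, and with processed signal scaled over all miRs most of 24 were lower.

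The 2 probes of miR-21-5p moved in the same direction in 24h_Cyt vs 24h_Ctrl, with a log2FC of 0.44 on the 19-base probe and 0.67 on the 20-base probe. In 24h_Giv_Cyt vs 24h_Cyt they gave -0.21 and -0.27. The probes share their target and their arrays, so they are no replicates of the treatment.

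The call of miR-21-5p in 24h_Cyt vs 24h_Ctrl depended on single arrays. It was lost without 24h_Ctrl replicate 1 (log2FC 0.59, limma adjusted p = 0.0715), replicate 2 (0.49, adjusted p = 0.119) or replicate 3 (0.58, adjusted p = 0.0599), and without 24h_Cyt replicate 1 (0.49, adjusted p = 0.156) or replicate 2 (0.56, adjusted p = 0.0962). The direction was the same without any array, with a log2FC from 0.49 to 0.61 and an adjusted p from 0.00512 to 0.156. With the median of the 16 spots in place of their mean the log2FC was 0.52 (adjusted p = 0.0730), and over the settings other than leaving out an array the adjusted p ran from 5.48e-05 to 0.898.

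The arrays of 24h_Cyt and 24h_Ctrl shared no slide, so no value within a slide exists for this comparison. All 24h_Ctrl arrays were on slide 4, 24h_Cyt replicates 1 and 2 were on slide 1 and replicate 3 on slide 2. With slide as a fixed block, which ties the groups through the other arrays of the slides, the log2FC of miR-21-5p was 0.35 (limma adjusted p = 0.766). Without the 3 arrays of slide 1 it was 0.45 (adjusted p = 0.325). Slide 1 also held 6h_Giv_Ctrl replicate 1, whose miR-21-5p of 7.67 was 0.64 above the mean of the other arrays of its group. Of the 117 miRs measured on every array, 78 were higher on that array than on the others of its group, with a median difference of 0.21, and 6 by at least as much as miR-21-5p. No slide was shared either by the groups of 24h_Giv_Cyt vs 24h_Cyt, 6h_Giv_Cyt vs 6h_Cyt, 6h_Giv_Cyt vs 6h_Giv_Ctrl, 24h_Ctrl vs 6h_Ctrl or 24h_Giv_Ctrl vs 6h_Giv_Ctrl.

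Array brightness moved with miR-21-5p. As the 75th percentile of the processed intensity, brightness had a median of 742 in 24h_Cyt (596 to 1003), 347 in 24h_Ctrl (271 to 347) and 542 in 24h_Giv_Cyt (487 to 571). Over the 24 arrays the Pearson r of miR-21-5p with log2 brightness was 0.85 (Spearman rho 0.82), without the brightest 2 arrays 0.79, and within groups 0.76. For miR-34b-3p the r was -0.15 (rho -0.080), and within groups -0.41. With brightness as a covariate, a setting chosen after seeing the data, the log2FC of miR-21-5p in 24h_Cyt vs 24h_Ctrl was -0.048 (limma adjusted p = 0.898). Brightness was highest in 24h_Cyt, so the covariate also takes up what the groups differ in. The part of brightness and slide in the difference was not tested.

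**Figure D3:**
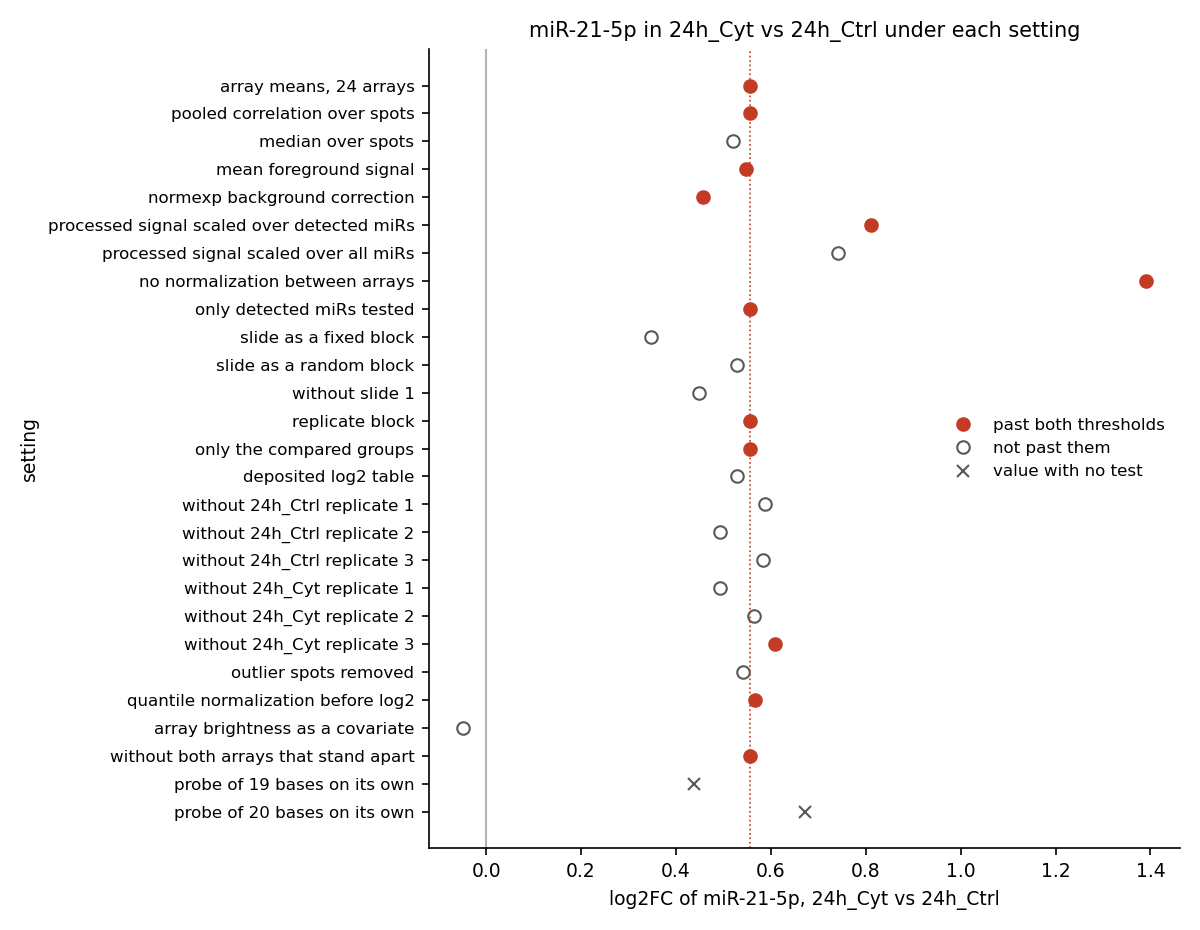
log2FC of miR-21-5p in 24h_Cyt vs 24h_Ctrl under each setting, filled where adjusted p and log2FC passed both thresholds. It lies between 0.35 and 1.39 except with array brightness as a covariate (-0.048).

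At 6 h, 0 of 8 members were called in 6h_Cyt vs 6h_Ctrl, against 0% of all miRs (limma on array means). At an unadjusted p below 0.05 there were 1 member and 30 of all miRs, and the pooled correlation test called 0 members and 2 miRs. miR-21-5p had a log2FC of 0.082 (95% confidence interval -0.23 to 0.40, limma adjusted p = 0.999) and miR-34b-3p one of 0.065. Both rested on single arrays. That of miR-21-5p was larger without 6h_Cyt replicate 2 (signal 7.12) and smaller without 6h_Ctrl replicate 1 (7.06). That of miR-34b-3p was larger without 6h_Ctrl replicate 1 (7.00) and turned negative without 6h_Cyt replicate 2 (6.95). The member below 0.05 was miR-34a-5p, with a measured difference of 0.089 (adjusted p = 0.999). On slide 2, which held 6h_Ctrl and 6h_Cyt arrays, the difference of miR-21-5p was 0.062 and that of miR-34b-3p 0.12.

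The cytokine effect at 24 h minus that at 6 h was 0.47 for miR-21-5p (95% confidence interval 0.026 to 0.92, limma adjusted p = 0.471). It did not pass the adjusted threshold, so an effect at 24 h alone is not shown. For this term 0 of 8 members and 4 of 758 miRs, 0.528%, were called, with 2 members and 72 miRs at an unadjusted p below 0.05. The pooled correlation test called 0 members and 21 miRs. The other member below 0.05 was miR-34a-3p (-0.070, adjusted p = 0.356).

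The effect of Givinostat beside cytokines at 24 h did not pass the test on array means for any member. In 24h_Giv_Cyt vs 24h_Cyt, miR-21-5p had a log2FC of -0.24 (95% confidence interval -0.56 to 0.075, limma adjusted p = 0.961), with all 3 arrays of 24h_Giv_Cyt below all 3 of 24h_Cyt. miR-34b-3p had one of 0.25 (95% confidence interval -0.18 to 0.67, adjusted p = 0.961), with its arrays above, and 0.11 without 24h_Giv_Cyt replicate 1. Its lowest 24h_Giv_Cyt array was at 6.81 and its highest 24h_Cyt array at 6.79. Between these groups 3 members and 127 of all 758 miRs, 16.8%, did not overlap. The 2 bright members thus differed in opposite directions, with both 95% confidence intervals taking in 0. The groups of this comparison shared no slide, and the part of slide in these differences was not tested. The count called was 0 of 8 members and 1 of 758 miRs, 0.132%, with 0 members and 38 miRs at an unadjusted p below 0.05. By the pooled correlation test 1 member and 21 miRs were called.

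With Givinostat present, cytokines for 24 h gave miR-21-5p a log2FC of 0.080 (95% confidence interval -0.24 to 0.40, limma adjusted p = 0.805) in 24h_Giv_Cyt vs 24h_Giv_Ctrl, and miR-34b-3p one of 0.28 (95% confidence interval -0.15 to 0.70, adjusted p = 0.570). Without 24h_Giv_Ctrl replicate 1 that of miR-21-5p was -0.030, and without 24h_Giv_Cyt replicate 1 that of miR-34b-3p was 0.15. On slide 3, with 1 24h_Giv_Cyt array and 2 24h_Giv_Ctrl arrays, miR-21-5p differed by -0.021 and miR-34b-3p by 0.25. On slide 4, with 2 24h_Giv_Cyt arrays and 1 24h_Giv_Ctrl array, they differed by 0.30 and 0.22. Slide 4 held 24h_Giv_Cyt replicate 1. In this comparison 0 of 8 members and 4 of 758 miRs, 0.528%, were called, with 0 members and 93 miRs at an unadjusted p below 0.05. The pooled correlation test called 1 member and 43 miRs. The cytokine effect with Givinostat minus that without it was -0.47 for miR-21-5p at 24 h (95% confidence interval -0.92 to -0.028, limma adjusted p = 0.857). A smaller cytokine effect under Givinostat is therefore not shown once all 758 miRs are tested together. For that term 0 of 8 members and 0% of all miRs were called, with 1 member and 39 miRs at an unadjusted p below 0.05. By the pooled correlation test 1 member and 22 miRs were called.

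Givinostat without cytokines gave miR-21-5p a log2FC of 0.23 in 24h_Giv_Ctrl vs 24h_Ctrl (limma adjusted p = 0.991) and 0.10 in 6h_Giv_Ctrl vs 6h_Ctrl (adjusted p = 0.979). Both comparisons had 0 of 8 members called and 0% of all miRs. At an unadjusted p below 0.05 each had 1 member, with 33 miRs at 24 h and 34 at 6 h, and the pooled correlation test called 0 members in both, with 3 and 4 miRs. The 6 h value rested on 6h_Giv_Ctrl replicate 1, without which it was -0.11. On slide 4, the single 24h_Giv_Ctrl array differed from the 24h_Ctrl arrays by 0.013. miR-34b-3p had a log2FC of -0.080 at 24 h and 0.15 at 6 h. Within slides it differed by 0.020 on slide 4 at 24 h and by 0.41 on slide 2 at 6 h. In 24h_Giv_Ctrl, replicate 3 was the highest array for miR-21-5p (7.38) and the lowest for miR-34b-3p (6.57). Without that array both 24 h values were smaller in size. A response of either miR to Givinostat alone was not detectable with these arrays.

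In the other comparisons at 6 h, 0 of 8 members and 0% of all miRs were called in 6h_Giv_Cyt vs 6h_Cyt, with 0 members and 24 miRs at an unadjusted p below 0.05 (limma) and 1 member and 21 miRs by the pooled correlation test. The same counts in 6h_Giv_Cyt vs 6h_Giv_Ctrl were 0 members and 0%, with 0 members and 27 miRs below 0.05 and 0 called by the pooled correlation test. The term for Givinostat at 6 h had 0 members and 0%, with 0 members and 12 miRs below 0.05. The pooled correlation test called 0 members and 1 miR. miR-21-5p had a log2FC of -0.14, -0.16 and -0.24 in the 3. The first turned to 0.00037 without 6h_Giv_Cyt replicate 3, its lowest array, and the second to 0.056 without 6h_Giv_Ctrl replicate 1, its highest. The last was -0.10 and -0.027 without the same arrays.

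Between times, miR-21-5p had a log2FC of 0.30 in 24h_Cyt vs 6h_Cyt (95% confidence interval -0.021 to 0.61, limma adjusted p = 0.419), with no overlap of the arrays. On slide 2, with 1 24h_Cyt array and 2 6h_Cyt arrays, the difference was 0.21. In 24h_Ctrl vs 6h_Ctrl the log2FC was -0.18 (limma adjusted p = 0.994), again with no overlap. It was smaller in size without 24h_Ctrl replicate 2, the lowest array at 6.84. In 24h_Cyt vs 6h_Cyt 4 members and 22% of all 758 miRs did not overlap. In 24h_Ctrl vs 6h_Ctrl these were 2 members and 8.58%. All 24h_Ctrl arrays were on slide 4 and all 6h_Ctrl arrays on slide 2, so this comparison has no value within a slide. The untreated cells thus lay lower and the cytokine-treated cells higher at 24 h than at 6 h, neither past the threshold. With Givinostat the values were 0.19 in 24h_Giv_Cyt vs 6h_Giv_Cyt and -0.045 in 24h_Giv_Ctrl vs 6h_Giv_Ctrl. They rested on single arrays, with 0.054 for the first without 6h_Giv_Cyt replicate 3, and 0.17 for the second without 6h_Giv_Ctrl replicate 1 or 0.065 without 24h_Giv_Ctrl replicate 1. In 24h_Cyt vs 6h_Cyt 0 of 8 members and 0.792% of all miRs were called, with 0 members and 104 miRs at an unadjusted p below 0.05, and in 24h_Giv_Cyt vs 6h_Giv_Cyt 0 of 8 and 0.396%, with 0 members and 67 miRs. In 24h_Ctrl vs 6h_Ctrl and 24h_Giv_Ctrl vs 6h_Giv_Ctrl the counts were 0 of 8 and 0%, with 1 and 0 members and 39 and 30 miRs. The pooled correlation test called 0 members in all 4 of these, and 17, 13, 4 and 2 miRs. miR-34b-3p had a log2FC between -0.13 and 0.10 in the 4. Without 6h_Giv_Ctrl replicate 1 it was -0.39 in 24h_Giv_Ctrl vs 6h_Giv_Ctrl, without 6h_Giv_Cyt replicate 3 it was 0.25 in 24h_Giv_Cyt vs 6h_Giv_Cyt, and without 6h_Ctrl replicate 1 it was 0.26 in 24h_Ctrl vs 6h_Ctrl.

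**Figure D4:**
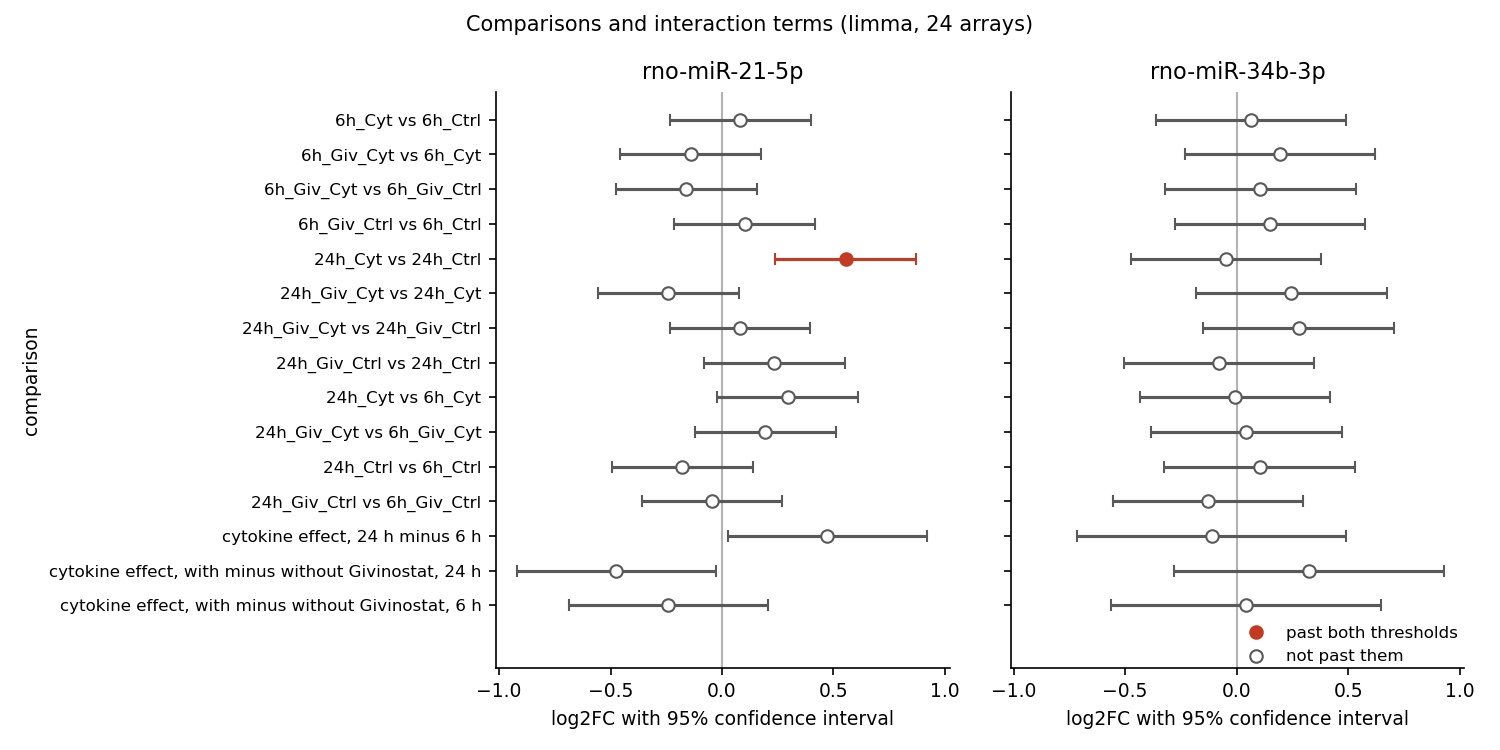
log2FC of miR-21-5p (left) and miR-34b-3p (right) with 95% confidence intervals in the 12 pairwise comparisons and 3 interaction terms, filled where both thresholds were passed. Only miR-21-5p in 24h_Cyt vs 24h_Ctrl is filled.

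The test that takes the 16 spots as correlated values with a pooled correlation gave another picture for miR-34b-3p. It called miR-34b-3p in 6h_Giv_Cyt vs 6h_Cyt (log2FC 0.19, limma adjusted p = 0.0149, and -0.010 without 6h_Giv_Cyt replicate 3), in 24h_Giv_Cyt vs 24h_Cyt (0.25, adjusted p = 0.000292) and in 24h_Giv_Cyt vs 24h_Giv_Ctrl (0.28, adjusted p = 1.62e-05). It also called the difference of the cytokine effect with and without Givinostat at 24 h (0.33, adjusted p = 0.00160). Without 24h_Giv_Cyt replicate 1 the sizes of the last 3 were 0.11, 0.15 and 0.19, and this test was not run without single arrays. In each, 1 of 8 members was called, against 2.77%, 2.77%, 5.67% and 2.9% of all miRs. The same terms had an adjusted p from 0.570 to 0.961 on array means. The spots of miR-34b-3p on an array lay close together, and this test gave an SE of 0.052 in place of 0.20. The spots of an array share 1 RNA. For miR-21-5p the same test gave an SE of 0.19 and called 24h_Cyt vs 24h_Ctrl alone (adjusted p = 0.0406), the 1 member of 8 beside 6.33% of all miRs.

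Members of other lists on the same arrays give the setting of these values. The lists were chosen with earlier results of these data known, so their counts only describe. In 24h_Cyt vs 24h_Ctrl, 2 of 3 β-cell and 2 of 2 neuronal markers had an unadjusted p below 0.05 (limma). So had 4 of 6 blood cell markers, themselves not well above background on any array. The liver, muscle, endothelial and fibroblast markers had 0, and over all miRs the share was 23.7%. On array means the blood cell marker miR-223-3p was called, lower. The pooled correlation test called it and muscle miR-206-3p. The seed partners miR-449a-5p and miR-449c-5p were well above background on 0 arrays and not called in any of the 15 tests, with 1 unadjusted p below 0.05 among them and 0 calls by the pooled correlation test. Of 10 miRs linked to p53 beside the miR-34 family, 6 were well above background on all arrays, and 0 were called in any of the 15 tests by limma on array means. In 24h_Cyt vs 24h_Ctrl 4 of them had an unadjusted p below 0.05, where 23.7% of all miRs did. Their median log2FC there was 0.059, against -0.011 over all miRs, and the pooled correlation test called 1 of them higher, miR-192-5p, in that comparison. On array means miR-192-5p was also called there with detected miRs alone and with the compared groups alone. The count was 2 of 10 with processed signal scaled over detected miRs, where 84 of all 758 miRs were called. It was 2 without 6h_Giv_Ctrl replicate 1 and 6h_Giv_Cyt replicate 3, where 54 of all were called. Without normalization it was 7, where 173 of all were called and all calls were higher.

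Of 15 miRs linked to inflammatory signalling, 6 were called higher, 1 lower and 8 not in 24h_Cyt vs 24h_Ctrl, with a median log2FC of 0.12. Over all 758 miRs, 20 were called higher and 10 lower, with a median of -0.011. The list was chosen with earlier results of these data known, so its counts and median beside those of all miRs are no test. Of the 7 calls, 2 give no fold, since miR-203a-3p and miR-223-3p were too dim. The counts depended on the scaling. With processed signal scaled over all miRs 2 were higher and 1 lower, where 24 of all 758 miRs were called, most of them lower. Without normalization 10 were higher and 0 lower, where 173 of all miRs were called, all of them higher. The miR-29 family, known as repressors of collagen genes, rose, with a log2FC of 1.04 for miR-29b-3p (limma adjusted p = 0.000538), 0.76 for miR-29a-3p (adjusted p = 0.00514) and 0.71 for miR-29c-3p (adjusted p = 0.0283). miR-146b-5p rose by 0.76 (adjusted p = 0.0167). miR-146a-5p, a feedback repressor of NF-κB signalling, was not well above background in 24h_Ctrl and rose at least 1.05-fold (adjusted p = 4.91e-10), a bound set by the dimmest miR that each 24h_Ctrl array still measured above background. It was called higher in 24h_Giv_Cyt vs 24h_Giv_Ctrl as well, at least 1.18-fold (adjusted p = 9.47e-12), a comparison in which miR-21-5p was not called. miR-203a-3p was higher by a measured 0.26 (adjusted p = 0.00367), with 2 of 3 24h_Cyt arrays above background. miR-223-3p, below background on all arrays, was lower by a measured -0.24 (adjusted p = 0.0172).

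Single arrays decided some of these calls too. miR-29c-3p lost its call without 24h_Ctrl replicate 1 (0.73) or 2 (0.64) or 24h_Cyt replicate 1 (0.70) or 2 (0.68). miR-146b-5p lost its call without 24h_Ctrl replicate 2 (0.72) or 24h_Cyt replicate 1 (0.69) or 2 (0.80), and miR-223-3p without 24h_Ctrl replicate 1 (-0.23) or 2 (-0.24) or 24h_Cyt replicate 1 (-0.23) or 2 (-0.23). With slide as a fixed block, without slide 1 and with brightness as a covariate, 1 of the 15 miRs was called, miR-146a-5p. Without slide 1 the log2FC was 1.06 for miR-29b-3p, 0.72 for miR-29a-3p, 0.64 for miR-29c-3p and 0.70 for miR-146b-5p, with a measured difference of 0.25 for miR-203a-3p. Processed signal scaled over all miRs ended the calls of miR-29a-3p (0.72), miR-29b-3p (0.92), miR-29c-3p (0.81) and miR-146b-5p (1.14), slide as a random block that of miR-29c-3p (0.70), and no normalization that of miR-223-3p (-0.044). The sizes under the fixed slide block were 1.20 for miR-29b-3p, 0.84 for miR-29a-3p and 0.77 for miR-29c-3p, all at least as large as without it. That of miR-146b-5p was 0.61, smaller than without it, as was that of miR-21-5p at 0.35. With brightness as a covariate all 4 were smaller, at 0.62 for miR-29b-3p, 0.34 for miR-29a-3p, 0.15 for miR-29c-3p and 0.18 for miR-146b-5p, and that of miR-21-5p was -0.048. The measured differences of miR-203a-3p (0.12) and miR-223-3p (-0.14) were smaller with it too.

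miR-146a-5p was called higher in 4 more tests. These were 24h_Giv_Cyt vs 24h_Cyt (log2FC 0.16, limma adjusted p = 0.0429), 24h_Cyt vs 6h_Cyt (at least 1.07-fold), 24h_Giv_Cyt vs 6h_Giv_Cyt (at least 1.16-fold) and the cytokine effect at 24 h minus 6 h (adjusted p = 2.21e-05). No size is given for the last, since all of its groups but 24h_Cyt were below background for this miR. The first of these held only without 6h_Ctrl replicate 2, 6h_Cyt replicate 1, 6h_Giv_Ctrl replicate 1, 6h_Giv_Cyt replicate 1 or 3, 24h_Cyt replicate 1, 24h_Giv_Ctrl replicate 3 or 24h_Giv_Cyt replicate 1. Without any other array it was lost, at 0.12 to 0.16. It was also lost with slide as a fixed block (0.13) or random block (0.16), without slide 1 (0.21), with the median over spots (0.16), normexp (0.13), no normalization (0.18), detected miRs alone or the compared groups alone (both 0.16), the deposited table (0.16), outlier spots removed (0.14), brightness as a covariate (0.17), without 6h_Giv_Ctrl replicate 1 and 6h_Giv_Cyt replicate 3 together (0.16), and at the higher fold threshold named in the methods. miR-223-3p was also lower in 24h_Cyt vs 6h_Cyt (measured difference -0.25, adjusted p = 0.0491). That call held only without replicate 1 or 3 of 6h_Ctrl, 1 or 2 of 6h_Giv_Ctrl, 1 or 3 of 6h_Giv_Cyt or 3 of 24h_Giv_Ctrl, and was otherwise lost at -0.27 to -0.24. Slide as a fixed block (-0.22) or random block (-0.25), leaving out slide 1 (-0.21), mean foreground (-0.23), normexp (-0.16), no normalization (-0.098), the deposited table (-0.27), outlier spots removed (-0.26) and the brightness covariate (-0.17) ended it too. The pooled correlation test called 7 of the 15 miRs in 24h_Cyt vs 24h_Ctrl, beside 6.33% of all miRs. In 24h_Giv_Cyt vs 24h_Giv_Ctrl it called 8, beside 5.67%. It called 5 in 24h_Cyt vs 6h_Cyt, in 24h_Giv_Cyt vs 6h_Giv_Cyt and for the cytokine effect at 24 h minus 6 h. It called 2 in 6h_Cyt vs 6h_Ctrl, 6h_Giv_Cyt vs 6h_Cyt, 24h_Giv_Cyt vs 24h_Cyt and the Givinostat term at 24 h, and 0 in the others. The counts over all miRs are given with each comparison above.

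Of the reference miRs, let-7c-5p fell by 0.38 (limma adjusted p = 0.0452) in 24h_Cyt vs 24h_Ctrl, but without normalization between arrays, where the median of the miRs detected on all arrays shifted by 0.83, its log2FC was 0.62 (adjusted p = 0.0979). Its call held only without 6h_Ctrl replicate 1 or an array of 6h_Giv_Ctrl or 6h_Giv_Cyt, and without any other array it was lost, at -0.42 to -0.31. It was lost as well with the median over spots (-0.37), the pooled correlation test (-0.38), normexp (-0.36), processed signal scaled over all miRs (-0.68), slide as a fixed block (-0.56) or random block (-0.39), without slide 1 (-0.32), and with the deposited table (-0.38), outlier spots removed (-0.39) and the brightness covariate (-0.59). miR-21-5p was at 1.39 without normalization, above the shift. miR-103-3p had a log2FC of -0.19 (adjusted p = 0.306), and miR-423-3p was not above background.

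Across the 24 arrays, the miR most like miR-21-5p among the 116 others well above background on all arrays was miR-598-3p, with a Pearson r of 0.94 (rho 0.88, 0.94 over the 8 group means). It was followed by miR-101b-3p (r = 0.90), miR-129-1-3p (0.90), miR-29c-3p (0.90) and miR-384-5p (0.89). Without 6h_Giv_Ctrl replicate 1 and 24h_Cyt replicate 1 these 5 values were 0.90, 0.86, 0.84, 0.91 and 0.83. The least like were miR-672-5p (-0.84), miR-466d (-0.80) and miR-206-3p (-0.78), and the median over all 116 was 0.18. These arrays share slides and brightness, so the values describe how the signals moved over arrays, among them miR-29c-3p as 1 of the miRs called higher in 24h_Cyt vs 24h_Ctrl.

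For miR-34b-3p the most alike were miR-328a-3p (r = 0.98), miR-667-3p (0.98), miR-764-5p (0.97), miR-328b-3p (0.97) and miR-196c-3p (0.97). The least alike were miR-497-5p (-0.95), miR-195-5p (-0.92) and miR-99b-5p (-0.92), with a median of -0.47 over 116. miR-34b-3p thus varied closely with a set of miRs on these arrays, and within groups its r with miR-328a-3p was 0.99. miR-21-5p and miR-34b-3p had an r of -0.60 with each other (rho -0.56). It was -0.37 without 6h_Giv_Cyt replicate 3 and 6h_Giv_Ctrl replicate 1, and -0.49 without 6h_Giv_Ctrl replicate 1 and 24h_Cyt replicate 1. Within groups r was -0.88, and over the 8 group means -0.089. The opposite movement of the 2 bright members lay mainly between arrays of the same group and was weak over the 8 group means. In single comparisons the 2 differed in opposite directions in some, among them 24h_Giv_Cyt vs 24h_Cyt, and in the same direction in others.

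**Figure D5:**
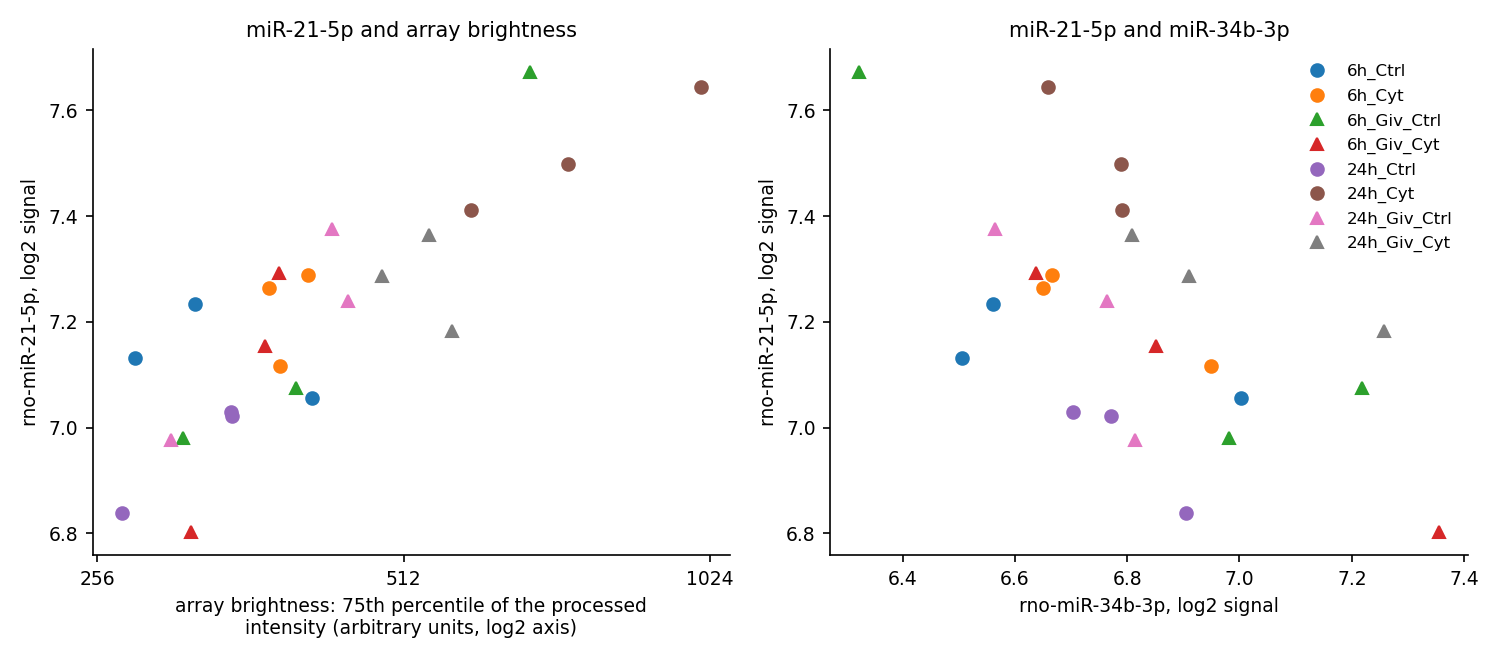
log2 signal of miR-21-5p on each of the 24 arrays against array brightness (left, arbitrary intensity units on a log2 axis) and against the log2 signal of miR-34b-3p (right), coloured by group, with triangles for Givinostat. miR-21-5p was higher on brighter arrays (r = 0.85) and lower where miR-34b-3p was higher (r = -0.60).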

How the data were processed

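miR levels in INS1 cells were measured on 24 Agilent SurePrint rat miRNA arrays. Per the file headers, the deposited scanner files come from Agilent Feature Extraction 10.7.3.1 (9.1 in the submitters' processing notes) and give each spot's intensity on a linear scale, not normalized between arrays. A second table deposited by the authors holds log2 values per miR, with column medians from 5.52 to 5.54 and a median distance of 0.00262 from the values below with spots summarised by their median. How its spots were summarised is not given in the sources used here.

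The median foreground of each spot entered without background correction, following the study's methods. After removal of 434 negative and 281 positive control spots, values were put on the log2 scale, quantile-normalized and averaged over the 16 spots of a miR. No spot was saturated. A model with 8 group means (16 residual degrees of freedom) was fitted in R 4.3.3 using lmFit and eBayes of limma 3.58.1. It gave 12 pairwise comparisons and 3 interaction terms, with Benjamini-Hochberg adjustment over 758 miRs, and was tested on simulated data. Calls needed an adjusted p below 0.05 and an absolute log2FC above 0.1375, which is 1.1-fold, although the study's text gives it as 1.15-fold. The pooled correlation over spots, from the study's methods, was run beside it, since spots of an array share an RNA. Where a group had no array with the miR above background, a fold is a lower bound against the dimmest measured miR of each array, or the miR's own signal if higher.

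All members were named, with the 5 most and 3 least correlated miRs of the bright ones, and from the lists of p53-linked, inflammatory and reference miRs those called. The members and lists were chosen with earlier results of these data known. Alternatives were the median over spots, single probes, mean foreground, normexp (offset 50), processed signal scaled by the 75th percentile over detected or all miRs, no normalization, detected miRs alone, slide as a block, leaving out slide 1 or each array, the replicate number as a block, a fit of the groups compared, calls by p alone and the deposited table. Chosen after seeing the data were outlier spots removed, quantile normalization before log2, brightness as a covariate, a threshold at that 1.15-fold, and a fit without 6h_Giv_Ctrl replicate 1 and 6h_Giv_Cyt replicate 3. Precision is limited by 3 arrays per group. Plots were made in matplotlib 3.10.9 (Python 3.11.15).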

Additional observations from a re-analysis of the deposited data

How the results depend on the processing

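The call of miR-21-5p in 24h_Cyt vs 24h_Ctrl (log2FC 0.56) was lost, leaving 0 members called, with the median over spots (0.52), processed signal scaled over all miRs (0.74), slide as a fixed block (0.35) or random block (0.53), without slide 1 (0.45), with the deposited log2 table (0.53), and with 2 settings chosen after seeing the data, outlier spots removed (0.54) and brightness as a covariate, where the log2FC was reversed at -0.048. The single probes gave 0.44 and 0.67 with no test. Leaving out each array gave 0.49 to 0.61 and 0 to 1 members called. The cause of these changes was not tested.

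The main fit, on quantile-normalized array means, called 1 member in 24h_Cyt vs 24h_Ctrl. It called 0 in 24h_Giv_Cyt vs 24h_Giv_Ctrl, in 24h_Cyt vs 6h_Cyt and for the cytokine effect at 24 h minus 6 h. Without normalization between arrays the members called in these 4 were 2 (miR-21-5p and miR-34b-5p), 5, 2 and 1. All calls in the 4 were then higher, 173, 323, 122 and 51 of 758 miRs, as the median of detected miRs shifted by 0.83, 0.43, 0.69 and 0.69. let-7c-5p then turned from -0.38 to 0.62. The pooled correlation test called 1 member, miR-34b-3p, in each of 6h_Giv_Cyt vs 6h_Cyt, 24h_Giv_Cyt vs 24h_Cyt, 24h_Giv_Cyt vs 24h_Giv_Ctrl and the Givinostat term at 24 h, where array means called 0.

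Over all miRs, the 30 calls in 24h_Cyt vs 24h_Ctrl became 1 with slide as a fixed block, 3 without slide 1 or with brightness as a covariate, 84 with processed signal scaled over detected miRs, 48 with the pooled correlation test or no log2FC threshold and 54 without the 2 arrays named in the methods. With processed signal scaled over all miRs 6 of 24 calls were higher, as against 20 of 30, and the median of detected miRs shifted by -0.17.

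With the replicate block 1 member was called in 24h_Cyt vs 24h_Ctrl (miR-21-5p, 0.56, limma adjusted p = 0.0422), of 28 miRs, and no member's call changed. Of the listed miRs, let-7c-5p in that comparison and miR-146a-5p in 24h_Giv_Cyt vs 24h_Cyt were no longer called. No clear pairing of the arrays by number was seen, though these values cannot exclude one. Deviations of same-numbered arrays had a median r of 0.104, with 42 of 84 pairs above 0.1. Those of different-numbered arrays had a median r of -0.030, with 82 of 168 pairs above 0.1. Of the 24 arrays, 10 correlated best with their own number.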
